A study of Homo sapiens with 4 samples.

Results

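UQCRC2 and 9 other nuclear genes of respiratory complex III were followed in prostate cancer cells after knockdown of a long noncoding RNA. The members were the rows of the count table named UQCRC1, UQCRC2, UQCRFS1, CYC1, UQCRB, UQCRQ, UQCRH, UQCR10, UQCR11 and BCS1L, 10 of 60606 genes, and all 10 were among the 19349 genes that passed the filter on low counts. The group was chosen by the measured change of UQCRC2 between siLOC730101 and siControl, so the change of UQCRC2 is given as a description without a test. The other 9 genes belong to the group through their protein complex, although their values were also known when the group was drawn up.

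RNA was sequenced from DaroR cells (LNCaP-DaroR in the labels), a line derived from the LNCaP prostate cancer line by long culture in darolutamide, an antiandrogen drug. All 4 libraries therefore come from drug-resistant cells kept in the drug, and the parental cells are not analysed here. The 2 siControl libraries received a nontargeting control siRNA and the 2 siLOC730101 libraries a pool of siRNAs against the long noncoding RNA LOC730101. The knockdown was made to ask what this RNA does in cells that no longer respond to darolutamide, and it was a transient transfection of 1 resistant line.

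The siControl libraries held 53368158 and 46271037 counts on genes, and the siLOC730101 libraries held 40885634 and 39213498 counts. The labels do not say whether the replicates were separate cultures, so that p-values measure only the spread between these libraries. LOC730101, present in the table as ENSG00000216775, was counted 2560 and 2370 times in the siControl libraries and 633 and 680 times after knockdown, a log2 fold change of -1.56 (SE 0.12, adjusted p = 4.34e-06 in edgeR). All 8 luminal prostate markers examined, KLK3 and KRT18 among them, were present with 14266 to 134091 counts in every library. Their summed level was 7457 to 8269 CPM in siControl and 7940 to 8017 CPM in siLOC730101. The defining markers of basal epithelium (KRT5, TP63), leukocytes (PTPRC, CD3E) and endothelium (CDH5) had 0 counts in all 4 libraries. In the same lists VWF, an endothelial marker, had 238 to 442 counts and KRT14, a basal marker, had 8 to 24. Among fibroblast markers LUM was at 0, whereas COL1A1 had 451 to 797 counts and COL3A1 had 111 to 175. The remaining markers (KRT15, DCN, CD68, LYZ and PECAM1) had 0 to 4 counts. None of the tested markers of these other cell types passed the test in edgeR, with 0 at an unadjusted p under 0.05 and 0 called in DESeq2.

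Complex III, also called ubiquinol-cytochrome c reductase or the cytochrome bc1 complex, sits in the inner membrane of the mitochondrion. It passes electrons from reduced coenzyme Q to cytochrome c and pumps protons across the membrane, and it works as a dimer, often joined with complexes I and IV into supercomplexes. Its redox centres lie on cytochrome b, cytochrome c1 and the Rieske iron-sulfur protein, and its other subunits hold the complex together. Only cytochrome b is made from the mitochondrial genome, so every gene described here apart from MT-CYB is transcribed in the nucleus. UQCRC1 and UQCRC2 encode the large core proteins on the matrix side, which descend from a protease that removes import signals. UQCRFS1 encodes the Rieske protein, CYC1 encodes cytochrome c1, and BCS1L encodes the chaperone that inserts the Rieske protein late in assembly.

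UQCRC2 and UQCRQ are the members whose levels the results turn on, and the DNA just upstream of their annotated exons is shown here. UQCRC2 chose the group and no test is read for it, while UQCRQ alone passed the threshold among the remaining members. UQCRC2 lies on chromosome 16 from 21953288 to 21983660 on the plus strand of GRCh38, and its canonical transcript has 14 exons. UQCRQ lies on chromosome 5 from 132866630 to 132868847 on the plus strand. The first sequence is chr16:21953111-21953287, of 177 bases, and the second is chr5:132866392-132866629, of 238 bases, both on the plus strand of GRCh38.p14 from RefSeq, in lower case with the motif CCGGAA in capitals. This is the core motif of ETS factors, the family that includes the regulator of nuclear respiratory genes GABP.
UQCRC2: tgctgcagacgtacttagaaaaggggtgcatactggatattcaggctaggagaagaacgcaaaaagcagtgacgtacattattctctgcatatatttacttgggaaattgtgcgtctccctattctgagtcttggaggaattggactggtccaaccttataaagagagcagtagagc
UQCRQ: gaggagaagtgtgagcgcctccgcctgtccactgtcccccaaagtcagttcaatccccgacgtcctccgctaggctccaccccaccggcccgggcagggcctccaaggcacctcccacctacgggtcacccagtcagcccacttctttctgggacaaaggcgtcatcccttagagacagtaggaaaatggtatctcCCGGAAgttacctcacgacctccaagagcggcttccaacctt
The stretch before UQCRC2 had a GC content of 43.5%, and the stretch before UQCRQ had 60.5%. Promoters of 300 bases in the RefSeq table were matched for 8 of the 10 members and searched on both strands for 3 motifs of respiratory gene regulators. CCGGAA was found in 4 of the 8 (UQCRFS1, UQCRQ, UQCRH and UQCR11) and in 17.2% of all 35116 promoters in the table. The NRF1 motif CGCANGCG was found in 4 of the 8 (UQCRC1, UQCRFS1, UQCR10 and UQCR11) and in 10.0% of all promoters. The YY1 motif AAGATGG was found in UQCRC1 and UQCRC2 and in 5.84% of all promoters. The stretch printed above for UQCRC2 holds no match to it, so the match of UQCRC2 lies outside that stretch. The search did not count overlaps between the motifs, and a match is a run of letters that was not tested as a binding site.

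UQCRC2 was the member with the widest difference between the groups. It was counted 281 and 286 times in the siControl libraries, against 3726 and 7142 times in the siLOC730101 libraries. After scaling, its level was 5.20 and 6.11 CPM in siControl and 90.7 and 188 CPM in siLOC730101, where CPM is the count divided by the TMM-scaled library size in units of 1000000. Both siLOC730101 libraries were far above both siControl libraries, and the siLOC730101 libraries were also far apart from each other. The group means were 5.65 ± 0.645 CPM (SD, n = 2) and 139 ± 68.9 CPM (SD, n = 2), a ratio of 24.7, and the fitted log2 fold change was 4.63 with a standard error of 0.26. In bulk RNA, more cells that express the gene and more of its RNA per cell cannot be told apart. The standard error was 0.60 with robust moderation in edgeR and 0.51 in DESeq2. Among the 19349 tested genes, 4 had a higher log2 fold change, and none of these had a mean count above 7.25.

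**Figure D1:**
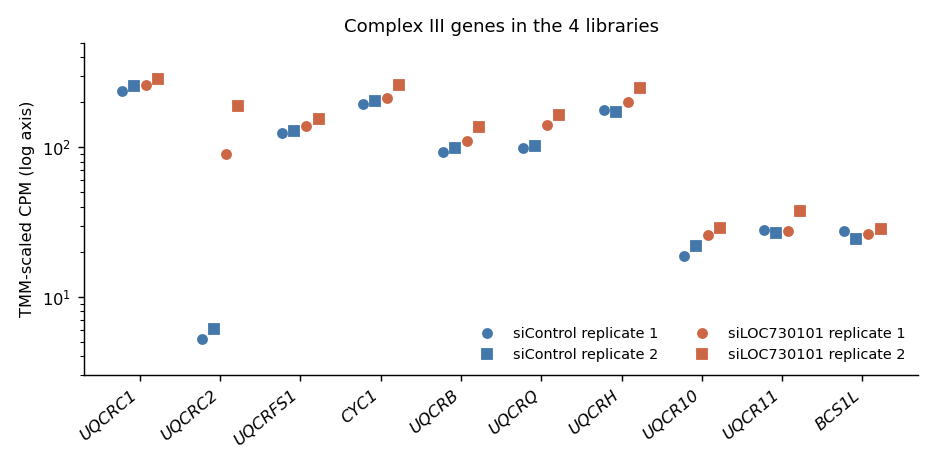
TMM-scaled CPM on a log axis for the 10 complex III genes, with circles and squares for replicates 1 and 2, siControl in blue and siLOC730101 in orange. UQCRC2 lies at 5.20 and 6.11 CPM in siControl and at 90.7 and 188 CPM in siLOC730101, while the 4 libraries of every other gene lie within 2-fold of each other.

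The siLOC730101 libraries differed by 2.07-fold in UQCRC2, or 1.05 on the log2 scale, with replicate 2 the higher. The counts alone would give a standard deviation of 0.029 for this log2 ratio. It was the widest gap among the 4690 tested genes with a mean count within 2-fold of that of UQCRC2, whose median gap was 0.11, and the next widest gap was 0.66. The siControl libraries differed by 0.23 in UQCRC2, against a counting standard deviation of 0.12 at this low level. Replicate 2 was also the higher siLOC730101 library for each of the other 9 genes, by 0.12 for UQCRC1 up to 0.45 for UQCR11. Over all tested genes replicate 2 was the higher in 51.6%. Among those with a mean count of at least 500, the share moved with the length of the canonical transcript. It was 89.3% at 500 to 1000 bases, 80.9% at 1000 to 2000 bases and 35.7% from 4000 bases. Replicate 2 was also the higher for 33 of 37 complex I, 10 of 11 complex IV and 17 of 17 complex V subunits. The gaps of CYC1 (0.29), UQCRH (0.31), UQCRB (0.33) and UQCR11 (0.45) were wider than in 95.2% to 97.8% of tested genes of similar count.

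**Figure D2:**
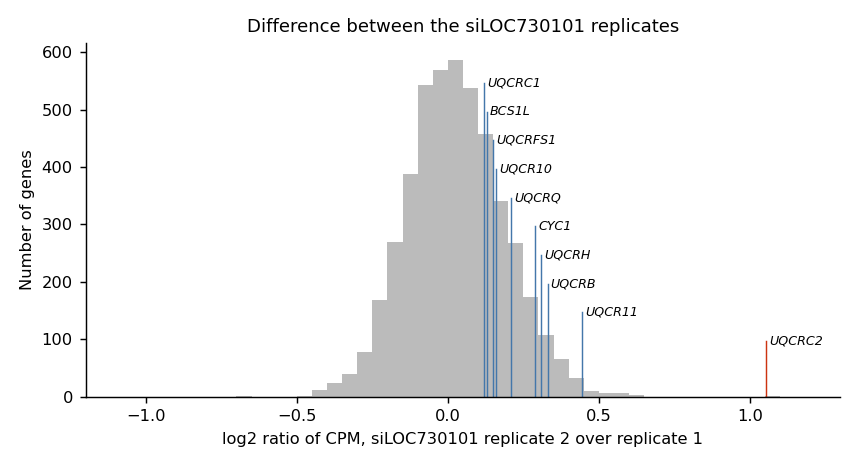
Histogram of the log2 ratio of CPM between siLOC730101 replicates 2 and 1 for 4690 tested genes with a mean count within 2-fold of that of UQCRC2, with vertical lines at the 10 complex III genes (line height has no meaning). All 10 lines lie above 0, and UQCRC2 at 1.05 lies beyond the rest of the histogram.

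Subunits of 1 complex can be set side by side only per length of transcript. Per kilobase of exon in the count table, UQCRC2 stood at 1.13 and 1.33 CPM in siControl, the lowest of the 9 nuclear subunits in both libraries. The next lowest was UQCRB at 7.42 and 7.80 CPM per kilobase, and the highest was UQCRH at 133 and 129. In siLOC730101 UQCRC2 stood at 19.8 and 40.99 CPM per kilobase, rank 3 of 9 from the bottom in replicate 1 and rank 4 in replicate 2. Relative to the median of the other 8 subunits, UQCRC2 stood at 2.68% and 3.05% in the siControl libraries and at 36.2% and 66.1% in the siLOC730101 libraries. These levels rest on the change that chose the gene and are a description.

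The other core protein offers the closest comparison. UQCRC1 stood at 77.3 ± 3.77 CPM per kilobase (SD, n = 2) in siControl and at 85.4 ± 5.05 (SD, n = 2) in siLOC730101. UQCRC2 was at 1.52% and 1.66% of the level of UQCRC1 in the siControl libraries and at 24.1% and 46.1% in the siLOC730101 libraries. In the complex the core proteins are present in equal number, but protein was not measured here and these RNA levels do not give it. Of the summed per-kilobase level of the 9 nuclear subunits, UQCRC2 made up 0.262% and 0.300% in siControl and 3.82% and 6.51% in siLOC730101. Ranked per kilobase among all tested genes, UQCRC2 was at the 37.1 and 39.6 percentiles in siControl and at the 88.0 and 94.5 percentiles in siLOC730101. UQCRC1 stayed between the 97.7 and 97.9 percentiles in all 4 libraries.

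The length used for this scale matters, because the table merges the exons of all transcripts of a gene. The merged exons of UQCRC2 span 4589 bases and its canonical transcript 1914 bases, and for UQCRB the lengths are 12600 and 8459 bases. With canonical transcript lengths, a choice made after seeing the data, UQCRC2 stood at 5.28% and 6.02% of the median of the other subunits in siControl and at 70.1% and 127% in siLOC730101. It was then the lowest of the 9 in both siControl libraries and at rank 5 from the bottom in both siLOC730101 libraries. Both lengths gave the lowest rank in siControl.

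**Figure D3:**
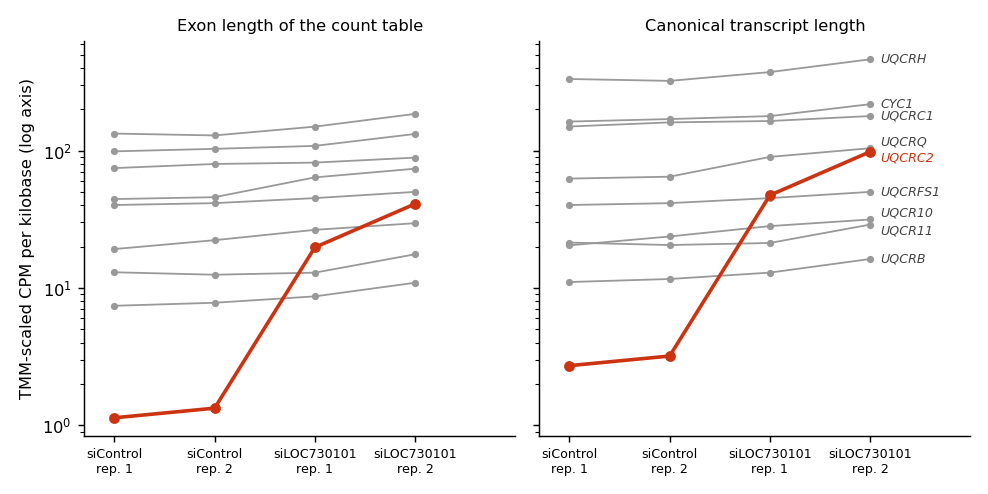
TMM-scaled CPM per kilobase on a log axis in each library for the 9 nuclear subunits, with UQCRC2 in red and the other 8 in grey, using exon length of the count table (left) or canonical transcript length (right); lines only join the values of a gene. In both siControl libraries UQCRC2 is the lowest line on either scale, and in siLOC730101 replicate 2 it reaches 40.99 on the left and 98.3 on the right.

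The other members had much smaller log2 fold changes than UQCRC2. Of the 9 other genes, 1 passed the threshold (adjusted p under 0.05 in edgeR), against 0.284% of the 19349 genes tested, or 41 higher and 14 lower. All 9 fitted log2 fold changes were above 0, from 0.08 to 0.61, with a median of 0.26, while the median over all tested genes was -0.0021. In 7 of the 9, both siLOC730101 libraries were above both siControl libraries, and this held for 21.3% of all tested genes. Of genes with a mean count of at least 500 and canonical transcripts of 1000 to 2000 bases, 79.1% had values above 0. Both siLOC730101 libraries were above both siControl libraries in 722 of those 1622 genes, and in 665 of 4033 genes from 4000 bases. The same held for 28 of 37 complex I, 8 of 11 complex IV and 13 of 17 complex V subunits. Leaving out siLOC730101 replicate 1 brought the median to 0.47. The median was 0.14 without siLOC730101 replicate 2.

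None of the catalytic subunits passed the test in edgeR, nor did the core partner. UQCRC1 had 239 and 256 CPM in siControl and 262 and 285 CPM in siLOC730101, with a log2 fold change of 0.14 (SE 0.077, adjusted p = 0.538 in edgeR). UQCRFS1, the Rieske protein, had 124 and 128 CPM in siControl and 139 and 155 CPM in siLOC730101, with a log2 fold change of 0.22 (SE 0.081, adjusted p = 0.293). CYC1, cytochrome c1, had 194 and 202 CPM in siControl and 213 and 260 CPM in siLOC730101, with a log2 fold change of 0.25 (SE 0.090, adjusted p = 0.278). In each of these genes the groups did not overlap, but the siLOC730101 library nearest to siControl lay close to it. Without siLOC730101 replicate 2 the log2 fold changes were 0.080 for UQCRC1, 0.14 for UQCRFS1 and 0.099 for CYC1. Without replicate 1 they were 0.21, 0.30 and 0.40, and UQCRFS1 and CYC1 then passed the test (adjusted p = 0.00889 and 1.72e-05). MT-CYB, the cytochrome b gene of the mitochondrial genome, went the other way, with 1333 and 1318 CPM in siControl and 1094 and 1141 CPM in siLOC730101. Its log2 fold change of -0.25 (SE 0.065) did not pass the test in edgeR (adjusted p = 0.135) and passed it in DESeq2 (adjusted p = 0.00535).

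UQCRQ rose after knockdown and was the member that passed. It encodes a small subunit that lies against cytochrome b. It was counted 5326 and 4759 times in the siControl libraries and 5823 and 6225 times after knockdown, although the siLOC730101 libraries were smaller. Its level was 98.5 and 102 CPM in siControl and 142 and 164 CPM in siLOC730101, with both siLOC730101 libraries above both siControl libraries. The means were 100.1 ± 2.23 CPM (SD, n = 2) and 153 ± 15.7 CPM (SD, n = 2). The log2 fold change was 0.61 (SE 0.087, adjusted p = 0.00416 in edgeR with Benjamini-Hochberg adjustment), and it passed the threshold under all 14 alternatives, with a log2 fold change of 0.50 to 0.72 and an adjusted p from 9.98e-15 to 0.00536. The gene of the growth factor GDF9 overlaps 255 bases (11.5%) of the UQCRQ exons on the opposite strand and was counted without strand, so that reads of the pair cannot be told apart there. It had 344 to 589 counts, with a log2 fold change of -0.13.

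The other small subunits had log2 fold changes between those of CYC1 and UQCRQ. UQCRB, which encodes a subunit near the coenzyme Q site, had 93.4 and 98.3 CPM in siControl and 109 and 138 CPM in siLOC730101, with a log2 fold change of 0.37 (SE 0.10, adjusted p = 0.148). UQCRH encodes the acidic hinge protein beside cytochrome c1 and had 179 and 173 CPM in siControl and 201 and 249 CPM in siLOC730101, with a log2 fold change of 0.35 (SE 0.092, adjusted p = 0.131). UQCR10, a small membrane subunit, had 18.7 and 21.7 CPM in siControl and 25.8 and 28.9 CPM in siLOC730101, with a log2 fold change of 0.44 (SE 0.13, adjusted p = 0.169). In these genes the groups did not overlap, and none passed the test in edgeR. UQCRB and UQCRH passed it in DESeq2, with adjusted p of 0.0343 and 0.0165, and in edgeR with no filter beyond 1 count, with adjusted p of 0.00557 and 0.00307. Without siLOC730101 replicate 1 UQCRB, UQCRH and UQCR10 all passed, at log2 fold changes of 0.53, 0.51 and 0.52, and without replicate 2 the values were 0.19, 0.19 and 0.35 and none passed. UQCR11, another peripheral small subunit, had 27.8 and 26.7 CPM in siControl and 27.6 and 37.6 CPM in siLOC730101, so that its groups overlapped (log2 fold change 0.26, SE 0.14, adjusted p = 0.526), and leaving out siLOC730101 replicate 2 gave a log2 fold change of 0.017, while leaving out replicate 1 gave 0.47 and a pass (adjusted p = 0.0152).

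**Figure D4:**
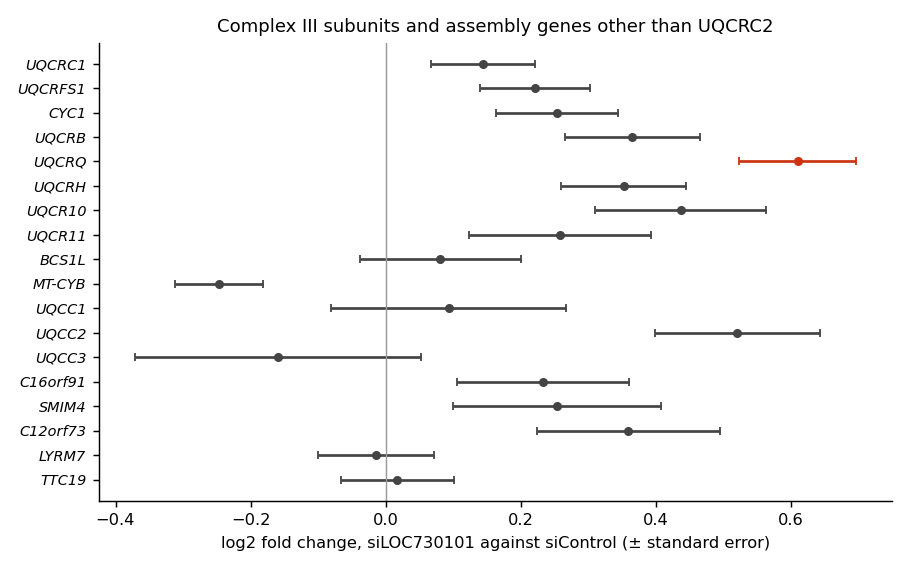
Log2 fold change of siLOC730101 against siControl with its standard error, from the edgeR fit over 4 libraries, for the complex III genes other than UQCRC2, for MT-CYB and for 8 assembly genes; red marks an adjusted p under 0.05. UQCRQ at 0.61 is the 1 gene in red, and MT-CYB at -0.25 is the lowest.

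BCS1L and the other assembly genes covered both directions. BCS1L had 27.5 and 24.2 CPM in siControl and 26.2 and 28.6 CPM in siLOC730101, overlapping groups with a log2 fold change of 0.08 (SE 0.12, adjusted p = 0.880) that was -0.0045 without siControl replicate 2. ZNF142 shares 455 bases (13.5%) of the BCS1L exons on the opposite strand and had a log2 fold change of -0.13. Of 8 further assembly genes none passed the test in edgeR, while 2 (25.0%) had an unadjusted p under 0.05, against 10.8% of all tested genes, and 1 (UQCC2, adjusted p = 0.0153) passed in DESeq2. In this list 6 had a log2 fold change above 0, and the median was 0.16. UQCC2, which with UQCC1 supports the making of cytochrome b, had the highest value at 0.52 (adjusted p = 0.0966), and UQCC1 was at 0.093. UQCC3, another early assembly factor, had the lowest value at -0.16. C12orf73, C16orf91 and SMIM4, the table's names for small assembly proteins now called UQCC6, UQCC4 and UQCC5, were at 0.36, 0.23 and 0.25. LYRM7, the chaperone of the Rieske protein in the matrix, was at -0.014, and TTC19, which clears its cleaved presequence fragments, was at 0.017.

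The 5 small subunits had a median log2 fold change of 0.37, against 0.25 for CYC1, 0.22 for UQCRFS1 and 0.14 for UQCRC1. Apart from UQCRB, their canonical transcripts had 537 to 1573 bases, and those of CYC1 and UQCRC1 had 1191 and 1595. Log2 fold changes in these libraries moved with transcript length over all genes. Among tested genes with a mean count of at least 500, the median log2 fold change was 0.31 for the 75 genes with a canonical transcript below 500 bases, 0.22 for 456 genes of 500 to 1000 bases, and 0.11 for 1622 genes of 1000 to 2000 bases. It was 0.034 for 3375 genes of 2000 to 4000 bases and -0.027 for 4033 longer genes. The same order was present between the siLOC730101 libraries themselves, where the median log2 ratio of replicate 2 to replicate 1 was 0.27 in the shortest group and -0.047 in the longest. UQCRH (537 bases) and UQCR10 (916 bases) fall in a range with a median of 0.22. UQCR11 (1299 bases), UQCRQ (1573 bases), CYC1 (1191 bases) and UQCRC1 (1595 bases) fall in the range with 0.11. UQCRFS1 (3086 bases) falls in the range with 0.034 and UQCRB (8459 bases) in the range with -0.027. UQCRC2 (1914 bases), at 4.63, had the highest value of the 1622 genes in its range. The gene was chosen for this change, so its place is a description. The part of transcript length in the log2 fold changes of the small subunits was not tested.

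**Figure D5:**
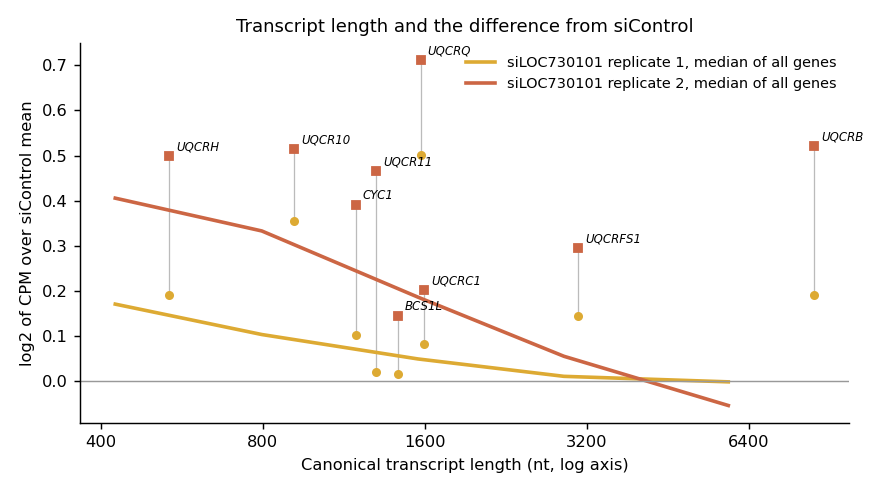
Log2 of CPM in each siLOC730101 library over the siControl mean, against canonical transcript length on a log axis, for the complex III genes other than UQCRC2 (circles for replicate 1, squares for replicate 2, joined by a grey line); the thick lines join the medians of all tested genes with a mean count of at least 500 in 5 length ranges, drawn at the median length. The medians fall with length in both libraries, from 0.17 to -0.0020 in replicate 1 and from 0.41 to -0.054 in replicate 2. UQCRQ lies above them in both, as do UQCRB, UQCRH, UQCR10, UQCRFS1, CYC1 and UQCRC1. UQCR11 lies below them in replicate 1, and BCS1L lies below them in both.

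The subunits of the neighbouring complexes, a list chosen after values were seen, gave a background for these numbers. The 37 nuclear subunits of complex I had a median log2 fold change of 0.25, the 11 of complex IV 0.40, the 17 of complex V 0.26 and the 4 of complex II 0.12, beside 0.31 for the 8 complex III subunits other than UQCRC2. These lists differ in length. The median canonical transcript had 684.5 bases for complex I, 629 for IV, 756 for V and 1323.5 for II, against 1436 for the 8 complex III subunits. The part of length in these medians was not tested. Over all tested genes 0.284% passed the threshold, and 16 of 456 did among genes of 500 to 1000 bases with a mean count of at least 500. Past the threshold were 3 subunits of complex I (NDUFS6, NDUFB1 and NDUFA3), 3 of complex IV (COX5B, COX7C and COX7B) and 2 of complex V (ATP5F1E and ATP5PF), all higher in siLOC730101. The largest value among these 8 was 0.86, for NDUFA3. The highest log2 fold change in any of these complexes was 1.63, below that of UQCRC2, which was chosen for its change.

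Genes that supply complex III, work beside it or control its nuclear genes were read from the same fit, and no gene of these 8 lists passed the test in edgeR. In each list 1 to 4 genes had an unadjusted p under 0.05, or 7.69% to 57.1% of a list against 10.8% of all tested genes, and DESeq2 called ESRRA (adjusted p = 0.00762) and COX7A2 (adjusted p = 0.00112). The 13 genes of coenzyme Q synthesis had a median of 0.11 and 12 of them were above 0, with the most distant value for COQ8A, a kinase-like protein of that pathway (1.02, adjusted p = 0.549). The 12 genes for dehydrogenases that reduce coenzyme Q had a median of 0.076, with PRODH, proline dehydrogenase, lowest at -0.80 (adjusted p = 0.351). The 5 genes for cytochrome c and heme had a median of 0.086, with COX10, which makes heme O, at 0.35 (adjusted p = 0.317). PMPCA, a subunit of the processing peptidase related to the core proteins, was at 0.26 (adjusted p = 0.291), in a list of 6 with a median of 0.080. COX7A2, a complex IV subunit listed with 6 supercomplex factors, was at 0.48 (adjusted p = 0.0579), and the median of those 7 was 0.20. ESRRA, a nuclear receptor that drives respiratory genes, was at 0.48 (adjusted p = 0.092) among 12 regulators with a median of 0.047. The 9 mitochondrial proteases had a median of 0.15, with PARL at 0.44 (adjusted p = 0.596). The 8 genes of cristae had a median of 0.13, with MICOS13 at 0.39 (adjusted p = 0.288).

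None of the tested genes around UQCRC2 passed the threshold. Within 1 Mb the table held 60 genes and 14 were tested, of which 2 had an unadjusted p under 0.05 in edgeR (10.8% over all tested genes) and 0 passed in DESeq2, with a median log2 fold change of -0.042 and a range from -2.42 to 0.62. The nearest tested gene before UQCRC2, the pseudogene SMG1P4, was counted 14 times in each siControl library and 4 and 0 times after knockdown (log2 fold change -2.42, adjusted p = 0.560). The nearest one after it, MOSMO, a modulator of Hedgehog signalling, was counted 193 and 167 times in the siControl libraries and 74 and 134 times after knockdown (log2 fold change -0.42, adjusted p = 0.713). Both neighbours had lower values in siLOC730101 without passing the test. No exon of another gene in the table overlapped UQCRC2, and none of the 1815 stretches of 100 bases in its canonical transcript was found in a transcript of another gene.

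Counts can be shared with copies for some members. UQCRH shares 79 of 438 such stretches (18.0%) with its copy UQCRHL, which was counted 318 and 264 times in the siControl libraries and 278 and 391 times after knockdown (log2 fold change 0.57, adjusted p = 0.347). UQCRFS1 shares 8.07% with the pseudogene UQCRFS1P1, which had 254 to 398 counts (log2 fold change 0.11, adjusted p = 0.922). The levels of UQCRH and UQCRFS1 are uncertain to that extent. UQCR10 and UQCR11 share 9.91% and 11.3% with annotated transcripts that had at most 3 counts in any library. The genes of these transcripts overlap 24.5% of the UQCR10 exons, on the opposite strand, and 11.0% of the UQCR11 exons, on the same strand. What these overlaps take from the counts of UQCR10 and UQCR11 was not tested. UQCRC1, CYC1, UQCRQ and BCS1L shared no stretch. The antisense gene UQCRB-AS1, which overlaps 120 bases of the UQCRB exons, had 12 to 38 counts.

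The pattern of UQCRC2 over the 4 libraries had no close match. UQCRC2 was chosen for its change between the groups, so a wide distance from most genes follows from that choice and is a description. By the Euclidean distance of log2 CPM centred on each gene's mean, the nearest of the tested genes were MGAT5B (2.28), HSPA12B (2.29), HELZ-AS1 (2.31), ENSG00000261447 (2.31) and ENSG00000255647 (2.39). A gene with the same level in all 4 libraries would lie at 4.57. All 5 were weakly expressed, with mean counts of 9.50 to 19.8, and none passed the test (adjusted p of 0.178 to 0.272). Their likeness to UQCRC2 rests on 4 libraries and on 0 to 9 counts in each siControl library.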

How the data were processed

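The authors deposited 1 table of raw read counts per gene, without normalization. Per the file headers, featureCounts 2.0.1 counted exons by gene name on hg38 with gencode 41, without paired-end or strand options, so mates may be counted apart and opposite strands are not separated. The methods of the paper name STAR and hg19, and the processing notes name BWA and hg38, so the aligner is uncertain.

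The fit used edgeR 4.0.16 in R 4.3.3 (filterByExpr, TMM, quasi-likelihood test with the condition as the only term, legacy method), with Benjamini-Hochberg adjustment over 19349 genes and a threshold of 0.05. Log2 fold changes are siLOC730101 against siControl. Standard errors given for edgeR are the absolute log2 fold change divided by the square root of the quasi-likelihood F statistic. Those for DESeq2 are the ones it reports. An exact two-sided permutation test of 2 against 2 libraries cannot go below p = 0.333 and was not used. Alternatives were other scalings, filters, quasi-likelihood settings, DESeq2 1.42.0, halved counts, a replicate block and leaving out each library. Distances between patterns used log2(CPM + 0.1).

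The members and all gene lists were chosen with earlier results of these data known. Named genes were the members, MT-CYB, copies with a mean count of at least 10, all assembly genes, the gene of each list with the largest change where none passed, overlapping genes, neighbours of UQCRC2 and the 5 likest patterns. Genes of other complexes and length ranges were added after seeing the data, as was canonical transcript length, from gencode version 44 lifted to GRCh37. Further luminal markers are not reported here.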

Additional observations from a re-analysis of the deposited data

How the results depend on the processing

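UQCRC2 had a log2 fold change of 4.54 to 4.63 under the alternatives that kept all 4 libraries and of 4.004 (without siLOC730101 replicate 2) to 5.07 (without siLOC730101 replicate 1) when 1 library was left out. The number of other complex III genes past the threshold was 1 in the reported fit, 3 with no filter beyond 1 count, 3 in DESeq2, 5 with the replicate block (UQCRQ, CYC1, UQCRB, UQCRH and UQCR10) and 1 to 7 when 1 library was left out. In each setting where this number rose, calls over all tested genes rose too, so it is to be read beside the totals below. Whether complex III gained more calls than other genes in those settings was not tested. The median log2 fold change of the 9 other complex III genes was 0.14 to 0.47 when 1 library was left out. BCS1L ranged from -0.0045 to 0.18 in the same fits. A library left alone in its group was assumed to vary like the other group. UQCRC2 per kilobase in siControl was 2.86% of the median of the other 8 subunits, 2.68% to 3.05% by library, 3.29% of their geometric mean, 1.59% of UQCRC1 alone and 5.65% of the median with canonical transcript lengths. In siLOC730101 it was 51.2%, 36.2% to 66.1% by library and 98.7% with canonical lengths. Coding lengths were not run.

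Same-numbered libraries did not deviate together (Pearson r = -0.00090 over genes), so the numbers were not treated as pairs. Over all genes, 41 were higher and 14 lower in the reported fit. The counts were 485 and 167 with the replicate block, 324 and 113 with no filter beyond 1 count, 233 and 64 in DESeq2, 137 and 49 at a mean count of at least 50, 113 and 35 with halved counts, 87 and 24 with the legacy method off, 58 and 35 with library size only, and from 77 and 60 to 923 and 272 when 1 library was left out, the last without siLOC730101 replicate 1. These totals have different denominators. The tested genes numbered 19349 in the reported fit and with the replicate block, 31960 with no filter beyond 1 count and 9653 in DESeq2. They numbered 14255 at a mean count of at least 50, 16949 with halved counts and 20425 to 21677 when 1 library was left out. With 2 libraries a group, small differences may not be detectable.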
